A study of Mus musculus with 13 samples.

Results

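The genes described here encode the adhesion and scaffold proteins that join endothelial cells to one another. They were chosen by gene name, with earlier results of these data known, as the rows of the deposited count table for Cdh5, Cldn5, Tjp1, Ocln, Esam, F11r, Jam2, Jam3 and Pecam1. All 9 were found among the 24421 gene symbols, and all 9 passed the filter on low counts. Bulk RNA sequencing was done on liver endothelial cells of wild-type mice in 13 libraries, of which 6 came from germ-free mice, kept without living microbes (GF, libraries 8 to 13), and 7 from conventionally raised mice with an ordinary microbiota (CONV-R, libraries 1 to 7). Both groups share the wild-type genotype, and age, sex, strain, cell isolation and whether a library is 1 animal or a pool are not stated. The p-values therefore measure the spread between these libraries, which may be partly technical. The comparison asks how the junction transcripts of liver endothelium differ when the microbiota is missing.

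Endothelial cells are held together by adherens junctions and tight junctions. In the adherens junction, VE-cadherin binds its own kind on the neighbouring cell and is tied to the actin cytoskeleton through catenins. In the tight junction, claudins and occludin form the seal, the junctional adhesion molecules bind across the contact, and zonula occludens proteins hold these on the inner side of the membrane. Sinusoidal endothelium of the liver is fenestrated and lacks a continuous basement membrane, and claudin-5 is known best from vessels with tight barriers, such as those of the brain.

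Library totals ran from 23407168 to 35478115 counts in GF and from 7590320 to 32869515 in CONV-R. The 18 sinusoidal endothelial markers were all detected in every library, with a sum of 51503 to 55467 CPM (counts scaled to a common library total) in GF and 31051 to 53444 in CONV-R. Hepatocyte markers summed to 971 to 1524 CPM in GF and 1662 to 11092 in CONV-R, so these shares did not overlap between the groups. A fit with this share as a covariate therefore cannot well separate the share from the group. CONV-R 1 had the highest hepatocyte share and the lowest endothelial marker share of all libraries. It was also the lowest library of all for every junction gene except Cldn5 and Ocln. Kupffer cell markers summed to 2445 to 4063 CPM in GF and 2607 to 8182 in CONV-R, with 7148, 7981 and 8182 in CONV-R 1, 5 and 6. Neutrophil and monocyte markers reached 1353 and 2141 CPM in CONV-R 6 and 7, and in the other CONV-R libraries they stood at 203 to 728. B and plasma cell markers stood at 1426 CPM in CONV-R 1 and at 49.5 to 67.3 in the other CONV-R libraries. Library names carry a code number that is 6 for all GF libraries, 10 for CONV-R 1 to 4 and 9 for CONV-R 5 to 7, and its meaning is not stated. Since no code number occurs in both groups, the code and the group cannot be told apart. In bulk samples fewer cells of a type and less RNA per cell cannot be told apart either.

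Of the 9 junction genes 5 rose in GF (Jam2, Ocln, Esam, Tjp1 and Pecam1), 1 fell (Cldn5) and 3 did not pass the test (Cdh5, F11r and Jam3). The test was edgeR's quasi-likelihood test with Benjamini-Hochberg adjustment over all 13915 genes tested, at a threshold of 0.05. Over all tested genes 24.1% were called, 11.4% higher and 12.7% lower in GF. The median log2 fold change of the 9 genes was 0.41, against -0.01 for all tested genes. The 18 sinusoidal endothelial markers, none of them among the 9 genes, had a median of 0.36, with 8 higher and 0 lower by edgeR (14 higher and 0 lower at an unadjusted p under 0.05). At that unadjusted threshold 5416 of all 13915 tested genes passed, counted in either direction. No difference between the junction genes and these markers was tested. For Jam2, Esam and Tjp1 the lowest GF library exceeded the highest CONV-R library, which happened for 5.94% of all tested genes. The opposite, all GF values under all CONV-R values, happened for 4.32% of tested genes and for none of the 9. Without CONV-R 1, 6 and 7 together, the same count of 5 higher and 1 lower was found, with Pecam1 at 0.25 in place of 0.41. With counts of the sinusoidal endothelial markers as library size in place of TMM scaling, the median of all genes moved to -0.37 on the log2 scale, 4 of the 9 genes were higher and 1 was lower.

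**Figure D1:**
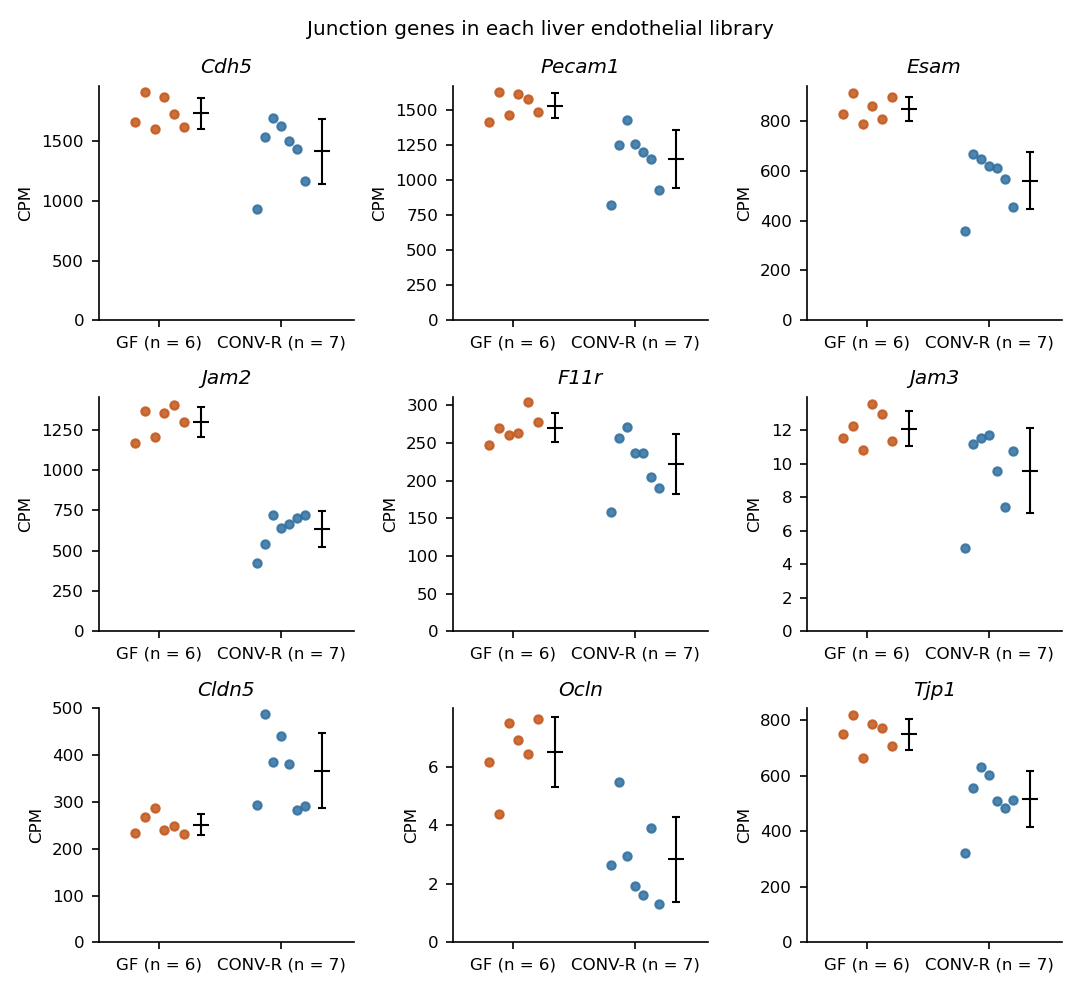
Each panel shows 1 junction gene, with CPM on the vertical axis. Points are single libraries and black marks are the mean and SD of each group (GF, n = 6, and CONV-R, n = 7). Jam2, Esam and Tjp1 have no overlap between the groups, and Cldn5 is the gene with lower GF values.

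VE-cadherin, encoded by Cdh5, is the cadherin of the endothelial adherens junction. The gene lies on chromosome 8 from 104101625 to 104144511 in GRCm38, the build the submitters call mm10. Levels of single genes are CPM of the library size after TMM scaling, given as the lowest, median and highest library. Cdh5 stood at 1608, 1696 and 1916 CPM in GF and at 932, 1506 and 1695 CPM in CONV-R. The groups overlapped, since GF 8, 10 and 13 lay below CONV-R 3. The log2 fold change was 0.29 ± 0.13 (SE) with a 95% interval of 0.02 to 0.57, and the adjusted p of 0.103 did not pass. With endothelial marker counts as library size the log2 fold change of Cdh5 was -0.02, and with the hepatocyte share as a covariate it was -0.15.

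PECAM-1 is an immunoglobulin-type protein that binds its own kind between endothelial cells and is also made by platelets and leukocytes. Pecam1, on chromosome 11 from 106654217 to 106750628, stood at 1419, 1531 and 1632 CPM in GF and at 826, 1201 and 1427 CPM in CONV-R. A single pair overlapped, GF 8 lying just under CONV-R 3. Pecam1 rose 1.33-fold, with a log2 fold change of 0.41 ± 0.11 and an adjusted p of 0.0202. The call was lost without GF 9 (log2 fold change 0.38, adjusted p = 0.0551), against the code number 10 libraries alone (0.36), with endothelial marker counts as library size (0.10) and with the hepatocyte (0.03) or cholangiocyte (0.28) share as a covariate. Platelet and megakaryocyte markers, whose cells also carry this protein, summed to 27.7 to 38.4 CPM in GF and 26.3 to 61.1 in CONV-R, and their part in the result was not tested.

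Jam2 encodes JAM-B, a junctional adhesion molecule of endothelium that binds JAM-C on other cells, and it changed with the smallest p of the 9 genes. It lies on chromosome 16 from 84774123 to 84825928. Jam2 stood at 1167, 1326 and 1405 CPM in GF and at 423, 665 and 724 CPM in CONV-R. The lowest GF library was thus well above the highest CONV-R library. Jam2 averaged 1299.6 ± 95.02 CPM in GF and 633 ± 112 CPM in CONV-R (SD, n = 6 and 7). The rise was 2.05-fold, with a log2 fold change of 1.04 ± 0.12 and an adjusted p of 1.01e-04. It was 1.15 against the CONV-R libraries of code number 10 alone and 0.89 against those of number 9 alone. With endothelial marker counts as library size it was 0.71 (edgeR adjusted p = 0.00104), the lowest of all alternatives tried. As covariates the hepatocyte share gave 0.86 (adjusted p = 0.0224) and the cholangiocyte share 1.07 (adjusted p = 0.00639).

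Esam, the endothelial cell-selective adhesion molecule, belongs to the same wider immunoglobulin family and is also found on platelets. It lies on chromosome 9 from 37528078 to 37538319. Esam stood at 788, 842 and 912 CPM in GF and at 357, 613 and 667 CPM in CONV-R, with no overlap. The rise was 1.51-fold, with a log2 fold change of 0.60 ± 0.13 and an adjusted p of 0.00599. The call was lost with the hepatocyte share (log2 fold change 0.18) or the cholangiocyte share (0.45) as a covariate. With endothelial marker counts as library size it was 0.29 and still past the threshold.

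F11r encodes JAM-A, which is found on endothelium, epithelium, platelets and leukocytes, and lies on chromosome 1 from 171437535 to 171464603. F11r stood at 248, 267 and 304 CPM in GF and at 159, 237 and 271 CPM in CONV-R. CONV-R 3 lay above 4 of the 6 GF libraries. The log2 fold change of 0.28 ± 0.11 did not pass (adjusted p = 0.0750, 95% interval 0.05 to 0.52). It passed without CONV-R 3 (0.34, adjusted p = 0.0340) and against code number 9 alone (0.35), and it was -0.03 both with endothelial marker counts as library size and with the hepatocyte share as a covariate.

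Jam3, which encodes JAM-C, was a scarce transcript, at 265 to 450 counts per GF library and 57 to 392 per CONV-R library. The gene lies on chromosome 9 from 27097384 to 27155421. Of its exon length 30.3% is shared with Gm48796, an antisense gene that is not a row of the table. Because the strand setting of the counting is not stated, reads of the pair may not be separated. Jam3 stood at 10.8, 11.9 and 13.6 CPM in GF and at 4.97, 10.7 and 11.7 CPM in CONV-R. The upper CONV-R libraries lay among the GF values. The log2 fold change of 0.33 ± 0.17 did not pass (adjusted p = 0.169, 95% interval -0.04 to 0.69), and with the hepatocyte share as a covariate it was -0.08.

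The JAM genes and Esam thus differed in size of change, from 0.28 for F11r to 1.04 for Jam2 on the log2 scale. The 95% interval of Jam2, 0.79 to 1.29, lay wholly above that of F11r. No test of the difference between genes was made.

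**Figure D2:**
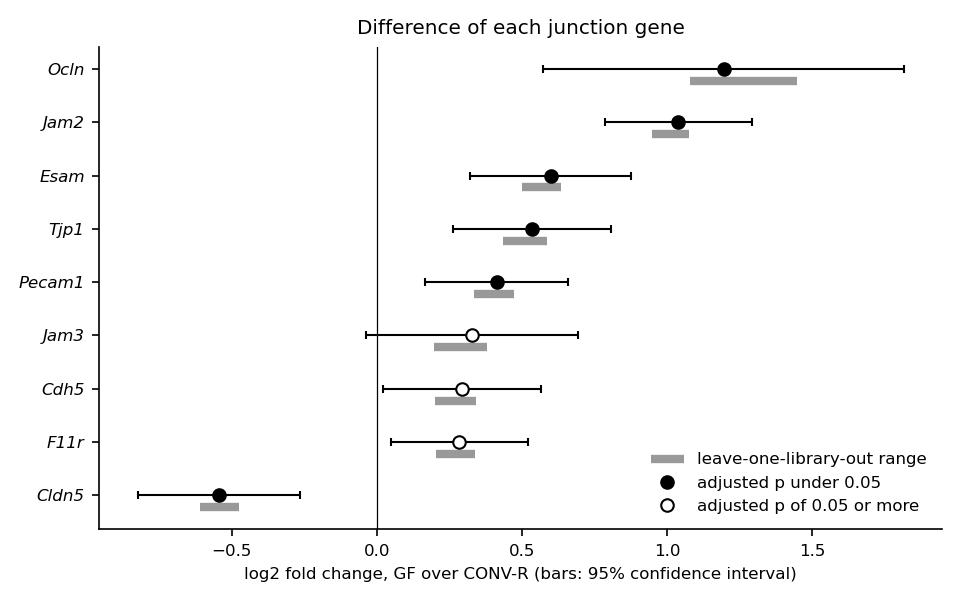
The horizontal axis is the log2 fold change of GF over CONV-R, and each row is 1 junction gene. Circles with bars are the estimate and its 95% confidence interval, filled where the adjusted p is under 0.05, and grey bars span the estimates with 1 library left out. Cldn5 at -0.54 stands on the other side of 0 from the remaining genes.

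Claudin-5 is the main claudin of endothelial tight junctions, and Cldn5 was the gene that fell. It is a gene of 1 exon in the annotation, on chromosome 16 from 18776847 to 18778262. Cldn5 stood at 230.4, 245 and 287 CPM in GF and at 283, 381 and 487 CPM in CONV-R. GF 10 was the only GF library above any CONV-R library, namely CONV-R 6. Cldn5 averaged 251 ± 21.9 CPM in GF and 366 ± 80.1 CPM in CONV-R (SD, n = 6 and 7), a fall of 1.46-fold. The log2 fold change was -0.54 ± 0.13, with a 95% interval of -0.82 to -0.26 and an adjusted p of 0.0106.

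The fall of Cldn5 passed the threshold against the code number 10 libraries alone (log2 fold change -0.68) and against the number 9 libraries alone (-0.36). It was -0.86 both with endothelial marker counts as library size and with the hepatocyte share as a covariate. Markers of continuous endothelium, whose cells make more claudin-5 than sinusoidal cells, summed to 3018 to 3449 CPM in GF and 2177 to 3244 in CONV-R. Of its 11 markers 1 was called, higher in GF, and their median log2 fold change was 0.22, from -0.18 to 0.67. The part of these cells in the Cldn5 result was not tested.

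Tjp1 encodes ZO-1, the scaffold that binds claudins, occludin and junctional adhesion molecules to actin. It lies on chromosome 7 from 65296165 to 65527781. Tjp1 stood at 664, 759 and 819 CPM in GF and at 321, 514 and 630.2 CPM in CONV-R, with no overlap. CONV-R 1 stood apart at 321 CPM, and the other CONV-R libraries began at 484. The rise was 1.45-fold, with a log2 fold change of 0.53 ± 0.13 and an adjusted p of 0.0101. The call was lost against code number 10 alone (log2 fold change 0.50, adjusted p = 0.0713). It was also lost with a covariate for the hepatocyte share (0.13) or the cholangiocyte share (0.43). Without CONV-R 1, 6 and 7 it was 0.38, and with endothelial marker counts as library size 0.23, both past the threshold.

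Occludin is a tight junction protein that spans the membrane and is most abundant in epithelia, including bile ducts and hepatocytes. Ocln lies on chromosome 13 from 100496507 to 100552718 and was the scarcest of the 9 genes, at 99 to 252 counts per GF library and 17 to 167 per CONV-R library. Ocln stood at 4.37, 6.66 and 7.61 CPM in GF and at 1.32, 2.64 and 5.47 CPM in CONV-R. The groups overlapped in 1 pair, since CONV-R 2 lay above GF 9. The rise was 2.29-fold, with a log2 fold change of 1.19 ± 0.29 and an adjusted p of 0.0110.

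Cholangiocyte markers, from genes of the bile duct epithelium, are given beside Ocln. Their sum was 208 to 480 CPM (479.5) in GF and 88.4 to 353 in CONV-R, none of the 12 was at 0 in any library, and 7 were higher and 1 lower in GF. The 6 GF libraries stood in the same order in both measures, from GF 13 as highest through GF 10, 11, 12 and 8 to GF 9 as lowest. CONV-R 2 was highest among CONV-R libraries in both, and the remaining CONV-R libraries stood in different orders. GF 8 and CONV-R 3, given as an example of similar shares (254 and 259.5 CPM), had Ocln at 6.16 and 2.94 CPM. CONV-R 6 and 7, given as another example (120.8 and 120.9 CPM), had Ocln at 3.92 and 1.32 CPM. With the cholangiocyte share as a covariate Ocln stood at 0.54 (adjusted p = 0.388), and with the hepatocyte share at 0.98 (adjusted p = 0.308). The part of these cells in the Ocln counts was not otherwise tested.

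**Figure D3:**
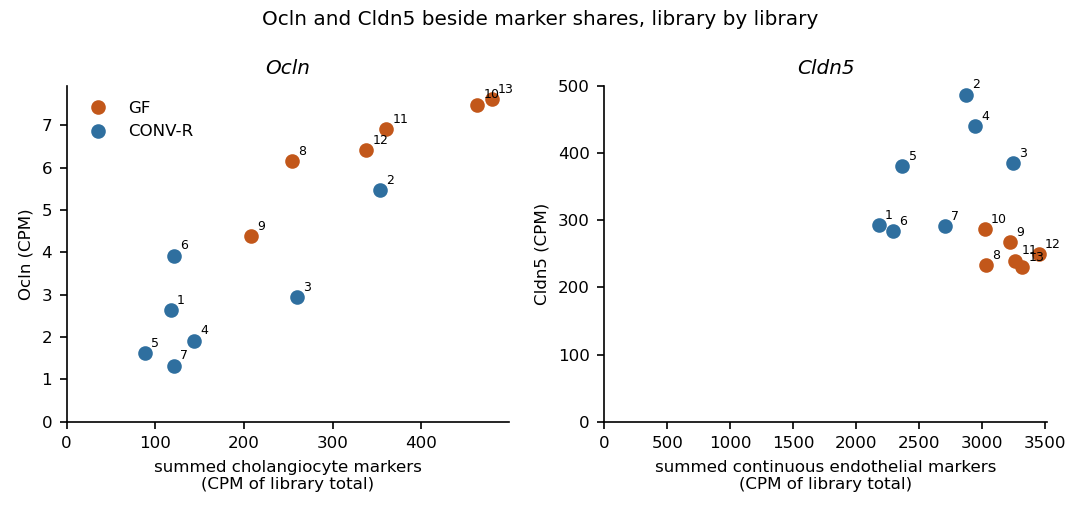
The left panel sets Ocln (CPM) against the summed cholangiocyte markers (CPM of the library total), and the right panel Cldn5 against the summed continuous endothelial markers. Each point is 1 library with its number, GF or CONV-R by colour. GF 9, the lowest GF library for Ocln at 4.37 CPM, has the lowest GF cholangiocyte share of 208.

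Promoter sequence was at hand for 4 of the 9 genes, and the windows of the gene that fell and of the tight junction partners that rose are shown so that they can be compared. Each runs from 250 bases before to 50 bases after a RefSeq transcription start in GRCm38.p6. The Cldn5 window is chr16:18776597-18776896 on the plus strand, that of Tjp1 is chr7:65371195-65371494 on the minus strand, and that of Ocln is chr13:100552669-100552968 on the minus strand. Capitals mark matches to 6 motifs searched on both strands, namely the GC box GGGCGG, the CACCC box CACCC, the ETS-type element CCGGAA, the forkhead-type element GTAAACA, the TATA box TATAAA and the E-box CACGTG. A match on the opposite strand shows as the reverse complement. The Tjp1 window lies inside the gene as annotated, at a start downstream of the gene's first.
Cldn5: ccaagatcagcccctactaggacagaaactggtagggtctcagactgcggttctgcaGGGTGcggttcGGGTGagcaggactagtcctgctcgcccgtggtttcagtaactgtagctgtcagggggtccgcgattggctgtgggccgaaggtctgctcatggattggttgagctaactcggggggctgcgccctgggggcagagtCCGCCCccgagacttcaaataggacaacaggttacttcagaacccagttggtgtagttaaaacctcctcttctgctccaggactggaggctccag
Tjp1: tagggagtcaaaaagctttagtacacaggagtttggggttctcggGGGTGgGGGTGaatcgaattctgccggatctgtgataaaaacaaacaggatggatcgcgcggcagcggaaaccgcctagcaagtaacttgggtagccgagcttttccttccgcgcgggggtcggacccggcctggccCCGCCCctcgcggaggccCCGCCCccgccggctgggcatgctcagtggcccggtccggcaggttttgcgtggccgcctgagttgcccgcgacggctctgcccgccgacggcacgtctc
Ocln: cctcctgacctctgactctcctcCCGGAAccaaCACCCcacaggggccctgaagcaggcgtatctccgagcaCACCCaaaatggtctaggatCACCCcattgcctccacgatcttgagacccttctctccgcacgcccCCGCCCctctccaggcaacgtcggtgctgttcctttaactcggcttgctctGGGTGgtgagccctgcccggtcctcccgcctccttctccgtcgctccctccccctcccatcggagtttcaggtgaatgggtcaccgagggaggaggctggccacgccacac

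The Cldn5 window held 1 GC box match, 45 bases before the start, and 2 CACCC matches. The Tjp1 window held 2 GC box and 2 CACCC matches, and the Ocln window 1 GC box, 4 CACCC and 1 ETS-type match. A second Ocln window in the table, chr13:100552449-100552748 on the minus strand, held 1 GC box, 1 CACCC and no ETS-type match. No match overlapped another. Of all 32851 RefSeq windows of this length 35.7% held a GC box, 57.5% a CACCC box and 14.9% the ETS-type element. The letters of the forkhead-type element (3.65% of windows), the TATA box (13.6%) and this E-box (7.15%) were in none of these windows. The F11r window held 1 GC box and no CACCC match. Windows of Cdh5, Esam, Jam2, Jam3 and Pecam1 are not shown.

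Set against Cdh5 in the same library, a ratio that no library scaling can change, Jam2 and Cldn5 lay on opposite sides. Cldn5 counts were 12.8%, 14.1% and 17.8% of Cdh5 counts in GF and 19.7%, 25.3% and 31.6% in CONV-R. Jam2 counts were 70.3%, 73.7% and 81.1% of Cdh5 in GF and 35.3%, 44.2% and 61.9% in CONV-R. For neither gene did the groups overlap.

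Esam also stood apart, at 45.8%, 48.3% and 55.1% of Cdh5 in GF and 38.1%, 38.7% and 43.3% in CONV-R. Tjp1 was 41.3%, 43.1% and 45.1% of Cdh5 in GF and 33.6%, 36.1% and 44.0% in CONV-R, and its overlap came from CONV-R 7 alone. Pecam1 ratios overlapped through CONV-R 1, at 85.2%, 88.6% and 91.4% in GF and 77.1%, 80.1% and 88.6% in CONV-R. F11r ratios overlapped throughout, at 15.7% ± 1.52 in GF and 15.8% ± 1.07 in CONV-R (SD, n = 6 and 7). Jam3 was 0.697% ± 0.0382 of Cdh5 in GF and 0.676% ± 0.136 in CONV-R. Ocln was 0.379% ± 0.0877 in GF and 0.203% ± 0.0997 in CONV-R. Its ranges, 0.228% to 0.469% in GF and 0.108% to 0.355% in CONV-R, overlapped through GF 9 alone. These ratios are of counts, not per length, and were not tested.

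**Figure D4:**
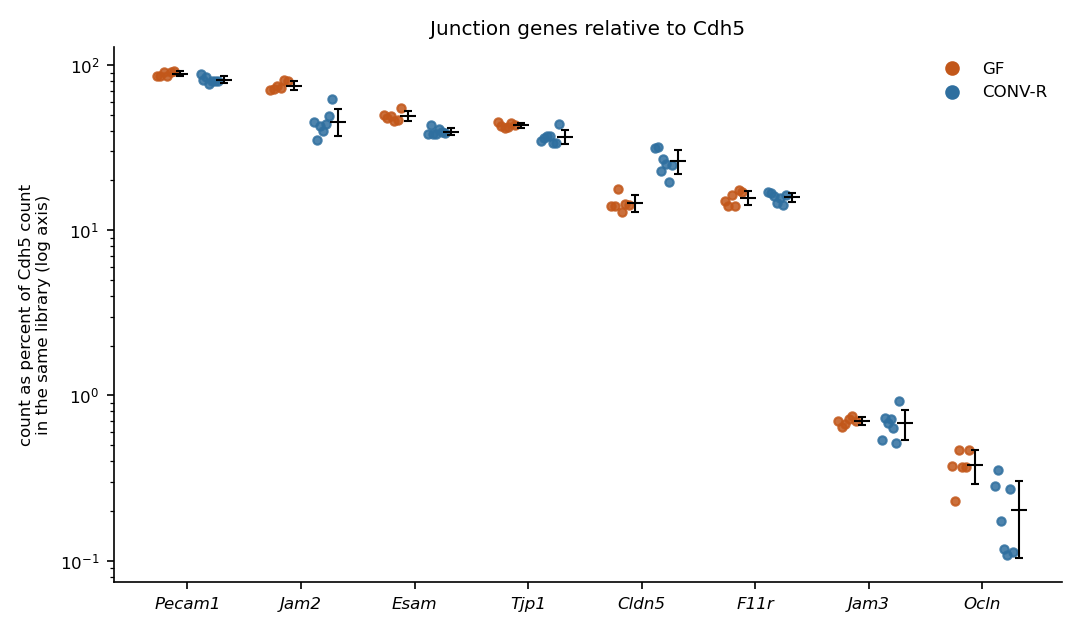
The vertical axis, on a log scale, is each gene's count as a percent of the Cdh5 count in the same library. Points are libraries, GF left of CONV-R for each gene, with the mean and SD in black. Jam2 lies higher and Cldn5 lower in GF with no overlap, and F11r averages 15.7% in GF and 15.8% in CONV-R.

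Levels can be compared between genes only per length, here CPM divided by the exon length in kb. In GF the order was Esam (455 CPM per kb), Cdh5 (434), Pecam1 (371), Jam2 (215), Cldn5 (177), F11r (108), Tjp1 (105), Jam3 (6.22) and Ocln (1.54). Neighbours whose library ranges overlapped were Esam and Cdh5, Jam2 and Cldn5, and F11r and Tjp1. In CONV-R the order was Cdh5 (354), Esam (300.3), Pecam1 (278), Cldn5 (258), Jam2 (105), F11r (88.3), Tjp1 (72.7), Jam3 (4.94) and Ocln (0.67). There the ranges overlapped from neighbour to neighbour among Cdh5, Esam, Pecam1 and Cldn5 and among Jam2, F11r and Tjp1.

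Cldn5 was thus above Jam2 per length in CONV-R, at 200.2 to 344 CPM per kb for Cldn5 and 70.0 to 120 (119.8) for Jam2. In GF the order of the pair was the other way round, at 163 to 203 CPM per kb for Cldn5 and 193 to 232 for Jam2, where the ranges overlapped. With the longest transcript in place of all exons, Pecam1 came second in both groups, and the order of the other genes among themselves was as given. The lengths are from GENCODE M21, since the authors' annotation is not stated.

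Spread within a group was smaller in GF for each of the 9 genes. The coefficient of variation across libraries was 5.72% to 18.3% in GF and 17.7% to 51.5% in CONV-R, with Ocln at the top of both ranges. No test of this difference in spread was made, and CONV-R also held the shallower libraries and the wider marker shares.

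By the root mean square difference of log2 CPM over the 13 libraries, each gene centred on its own mean, the genes most like Cdh5 among 9437 others were Mmrn2 (0.05), Ctnnd1 (0.06), Ctdsp2 (0.07), Dusp3 (0.07) and Calu (0.07). Their log2 fold changes were 0.27, 0.32, 0.29, 0.21 and 0.26, and Ctdsp2 alone passed (adjusted p = 0.0463), a call that held without CONV-R 3 or 4 and was lost without any other 1 library. Ctnnd1 (adjusted p = 0.0511) passed without CONV-R 1, 3 or 4. Among the 9 junction genes themselves Pecam1 was nearest to Cdh5 (0.08). Cldn5 and Ocln had no close neighbour, with their nearest at 0.44 (F11r) and 0.63 (Esam).

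The proteins that work with these genes were followed in 6 lists, whose counts stand against 11.4% higher and 12.7% lower over all tested genes. In the catenins and actin linkers, which tie cadherins to actin, 3 of 9 tested genes rose and 0 fell by edgeR, with a median log2 fold change of 0.23. At an unadjusted p under 0.05 1 was lower, and by DESeq2 and by limma-voom 0 were. Ctnna1, alpha-catenin, stood at 595 to 702 CPM in GF and 385 to 575 in CONV-R (log2 fold change 0.37 ± 0.10, adjusted p = 0.0147). Its call was lost with endothelial marker counts as library size (0.045, adjusted p = 0.589) and against code number 10 alone (0.34, adjusted p = 0.0727), and without CONV-R 1, 6 and 7 it was 0.22. Jup, plakoglobin, changed by 0.48 ± 0.15 (adjusted p = 0.0326), and Afdn, afadin, listed under its older symbol, by 0.32 ± 0.10 (adjusted p = 0.0384). The call of Jup was lost without any 1 library except GF 12 or CONV-R 2, 4 or 6 (adjusted p up to 0.0799). That of Afdn was lost without any GF library or CONV-R 2, 5 or 6 (adjusted p up to 0.0957), and its sign turned with endothelial marker counts as library size (-0.0035). The list's count of higher genes was 1 without GF 8, 9, 10, 11 or 13 or CONV-R 5, and its count of lower genes was 1 without CONV-R 1, 2, 3 or 4.

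Among tight junction scaffolds and proteins of tricellular contacts, 7 of 22 rose and 0 fell by edgeR (0 at an unadjusted p under 0.05, and 0 by DESeq2 and limma-voom), with a median of 0.24. Cgnl1, paracingulin, stood at 102 to 131 CPM in GF and 53.3 to 94.9 in CONV-R (0.56 ± 0.11, adjusted p = 0.00498). Magi3, a scaffold with several PDZ domains, stood at 114 to 126 CPM in GF and 48.9 to 99.1 in CONV-R (0.53 ± 0.12, adjusted p = 0.00969). Both calls held on leaving out any 1 library. Marveld3, a relative of occludin at no more than 50 counts per library, changed by 1.02 ± 0.31 (adjusted p = 0.0310), and the polarity kinase gene Prkci by 0.27 ± 0.08 (adjusted p = 0.0323). The call of Marveld3 was lost without GF 9, 10, 12 or 13 or CONV-R 1, 4, 5 or 6, and that of Prkci without any GF library or CONV-R 2 or 5, its sign turning with endothelial marker counts as library size (-0.062). The count of higher genes was 2 or 3 without any GF library or CONV-R 5 or 6.

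Of 19 other claudin genes 10 were abundant enough to be tested and the other 9 had at most 18 counts in any library. Of the 10, 4 rose and 1 fell, with a median of 0.80. Cldn15, a channel-forming claudin known from the gut, stood at 6.56 to 13.8 CPM in GF and 2.44 to 3.75 in CONV-R (1.81 ± 0.17, adjusted p = 3.02e-05). It passed in every alternative tried. Cldn1, a claudin of hepatocytes and other epithelia, stood at 0.486 to 0.801 CPM in GF and 0.866 to 6.69 in CONV-R (-2.36 ± 0.47, adjusted p = 0.00408), at -0.35 with the hepatocyte share as a covariate and at -1.40 without CONV-R 1, 6 and 7.

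Cldn7, an epithelial claudin, changed by 1.34 ± 0.38 (adjusted p = 0.0231), a call lost without GF 13 (adjusted p = 0.0524), and by 0.67 with the cholangiocyte share as a covariate. It is also in the cholangiocyte list, as is Cldn4, so this covariate partly adjusts Cldn7 for itself. Cldn23 changed by 1.95 ± 0.53 (adjusted p = 0.0180) at no more than 28 counts per library. The count of higher claudins was 2 without GF 13. Cholangiocyte markers stood at 208 to 480 CPM (479.5) in GF and 88.4 to 353 in CONV-R beside these genes. With the cholangiocyte share as a covariate Cldn15 stood at 1.68 (adjusted p = 0.00418) and Cldn23 at 1.90 (adjusted p = 0.158). Cldn8, the remaining claudin that rose, is named after its values were seen and changed by 1.39 ± 0.41 (adjusted p = 0.0273).

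In the list of other cadherins 3 of 10 rose and 1 fell, with a median of 0.80. Cdh13, a cadherin anchored to the membrane by a lipid, stood at 210.2 to 277 CPM in GF and 114 to 199 in CONV-R (0.76 ± 0.13, adjusted p = 0.00205). Cdh4, which encodes R-cadherin, stood at 40.0 to 46.1 CPM in GF and 14.0 to 31.9 in CONV-R (0.85 ± 0.17, adjusted p = 0.00418). Cdh1, the epithelial cadherin gene and a member of the cholangiocyte list, changed by 0.90 ± 0.30 (adjusted p = 0.0409). Its call was lost without GF 8, 10, 11, 12 or 13 or CONV-R 4, 5, 6 or 7, and it stood at 0.13 with the cholangiocyte share as a covariate. Because Cdh1 is part of that share, the covariate partly adjusts it for itself.

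Cdh2, the N-cadherin gene, which hepatocytes also express, was lower (-1.21 ± 0.38, adjusted p = 0.0357). That call was lost without GF 8, 9, 10, 12 or 13 or CONV-R 1, 5 or 7, and the value was 0.30 with the hepatocyte share as a covariate. Pcdh12, the protocadherin of endothelial junctions, is named after its values were seen and stood at 497 to 666 CPM in GF and 350.3 to 683 in CONV-R (0.01 ± 0.14, adjusted p = 0.967).

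Of 12 nectins and other junctional immunoglobulin proteins 1 rose and 2 fell, with a median of 0.10, which is close to the shares over all tested genes. Nectin3, which binds afadin inside the cell, stood at 17.4 to 20.2 CPM in GF and 10.2 to 15.8 in CONV-R (0.49 ± 0.09, adjusted p = 0.00326), and its call was lost with endothelial marker counts as library size (0.15). Jaml, a leukocyte protein that binds epithelial junctions, changed by -1.92 ± 0.47 (adjusted p = 0.0116), beside the lower neutrophil and monocyte markers of 77.3 to 162 CPM in GF and 203 to 2141 in CONV-R. It stood at -0.91 without CONV-R 1, 6 and 7 and at -0.29 with the hepatocyte share as a covariate. Nectin1 changed by -0.63 ± 0.20 (adjusted p = 0.0364), a call lost without GF 8, 9, 10, 12 or 13 or CONV-R 1 or 7, which left a count of 1 lower. Without CONV-R 1, 2 or 4, 2 genes of this list were higher.

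Among the regulators of VE-cadherin 8 of 25 tested genes rose and 2 fell, with a median of 0.17. Tiam1, an exchange factor that activates Rac, stood at 17.2 to 28.2 CPM in GF and 66.6 to 154 in CONV-R (-2.13 ± 0.23, adjusted p = 6.36e-05). Heg1, a membrane protein of endothelial junctions that binds KRIT1, stood at 351 to 384 CPM in GF and 146 to 246 in CONV-R (0.87 ± 0.10, adjusted p = 1.15e-04). Tiam1 and Heg1 passed in every alternative tried. Rac1, the target of Tiam1, changed by 0.40 ± 0.10 (adjusted p = 0.0139), at 0.073 (adjusted p = 0.361) with endothelial marker counts as library size and at 0.33 (adjusted p = 0.103) against code number 10 alone, both short of the threshold. Ptpn11, the SHP2 phosphatase gene, changed by 0.28 ± 0.07 (adjusted p = 0.00880) and stood at -0.053 with endothelial marker counts as library size. Of the partner genes named by rule, all but Cldn15, Tiam1 and Heg1 lost their calls with the hepatocyte and with the cholangiocyte share as covariates. Calls over all tested genes dropped as well, from 1593 higher and 1764 lower without a covariate. They were 277 and 250 with the hepatocyte share and 268 and 122 with the cholangiocyte share. The lost calls are therefore not particular to these genes. A lost call was not always a smaller estimate. With the hepatocyte share Marveld3 stood at 1.32 (1.02 without a covariate) and Cdh1 at 1.01 (0.90 without). With the cholangiocyte share Cdh4 stood at 0.89 (0.85 without). Cldn23 was somewhat smaller with the hepatocyte share, at 1.79 against 1.95.

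Vav2, a further exchange factor of Rac, and Ptprb, the phosphatase VE-PTP that acts on VE-cadherin, are named after their values were seen. Vav2 changed by -0.77 ± 0.20 (adjusted p = 0.0149). Ptprb stood at 7720.4 to 8374 CPM in GF and 3998 to 6917 in CONV-R (0.43 ± 0.12, adjusted p = 0.0212). The count of higher regulators was 4 without GF 9 and 5 without GF 11 or GF 13. With endothelial marker counts as library size, which lowered the median of all genes to -0.37, 1 of the 25 was higher and 10 were lower, beside 356 higher and 5045 lower of all 13915 tested genes. Kdr and Tek of the regulator list are also among these endothelial markers, so they are partly scaled to themselves.

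**Figure D5:**
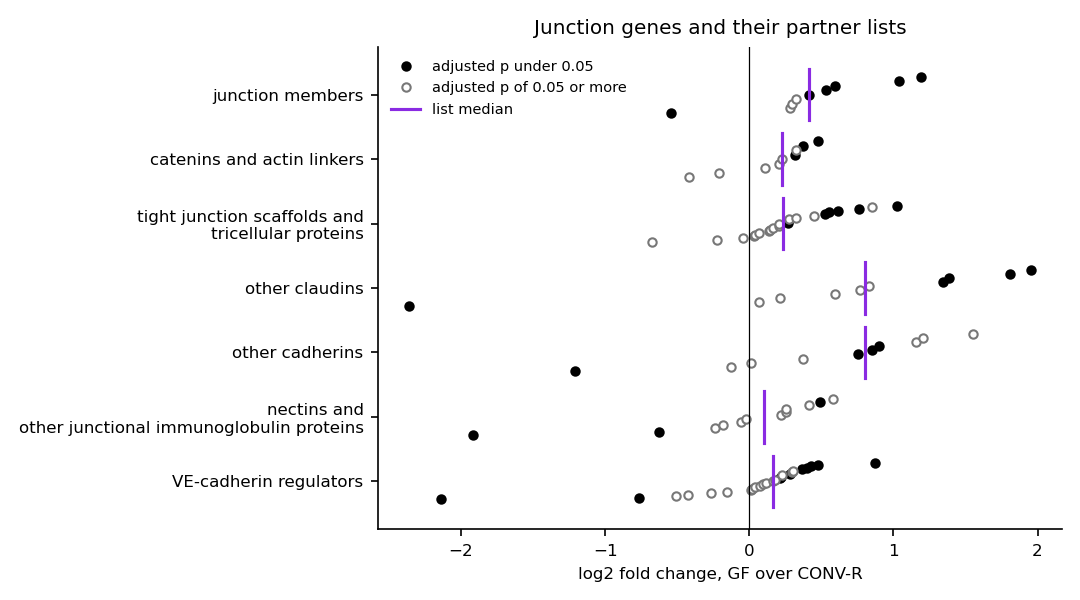
Each point is a tested gene, placed by its log2 fold change of GF over CONV-R on the horizontal axis and by its list on the vertical axis. Filled points have an adjusted p under 0.05 and the purple line is the list's median. The medians run from 0.10 for nectins and related proteins to 0.80 for other claudins and cadherins, with the 9 junction genes at 0.41.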

How the data were processed

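Per the labels' protocols, libraries were made with a stranded mRNA kit and read on an Illumina instrument. The authors deposited raw counts per gene symbol in 1 table with a column for each of 13 libraries. The submitters' processing notes name STAR 2.7.5a, featureCounts 2.0.1, FastQC 0.11.9, DESeq2 1.42.1 and build mm10. Annotation, strand setting and handling of multi-mapping reads are not stated.

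These counts went through edgeR 4.0.16 (R 4.3.3): filterByExpr with a minimum count of 10 and total of 15, TMM scaling, a robust quasi-likelihood fit of GF over CONV-R, and Benjamini-Hochberg adjustment over all tested genes. SE is the size of the log2 fold change over the root of F. Alternatives were DESeq2 1.42.0, voom from limma 3.58.1, other scalings and filters, marker shares as covariates, single code numbers and left-out libraries. The fit was tested on simulated data. All library pairs within a group differed by more than sampling noise (chi-square over degrees of freedom at least 13.4). Of the list genes 7 were found under older symbols and 2 were not found. Positions and lengths are from GENCODE M21 (GRCm38). Partner genes named are up to 4 per list past the threshold, smallest p first, with other genes marked. The junction genes and lists were chosen with earlier results of these data known.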

Additional observations from a re-analysis of the deposited data

Results flagged for a closer look

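In 8 of 88 groups of values 1 library lay far from the rest by Dixon's criterion at the 95% level, which chance alone meets in about 1 in 20 groups. In CONV-R 1, the library with the highest hepatocyte share, Tjp1 stood at 321 CPM and Magi3 at 48.9 CPM, where the nearest other CONV-R libraries had 484 and 77.1 CPM. Jup stood at 109.9 CPM in GF 12, and the nearest GF library had 174 CPM. Cldn23 reached 1.24 CPM in GF 9, above 0.743 CPM in the next GF library. Cldn7 reached 6.09 CPM in CONV-R 2, above 1.90 CPM in the next CONV-R library, and CONV-R 2 also had the highest cholangiocyte share of its group, 353 CPM. Relative to Cdh5, Cldn5 was 17.8% in GF 10 (next 14.4%), Tjp1 was 44.0% in CONV-R 7 (next 37.2%) and Ocln was 0.228% in GF 9 (next 0.369%).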

How the results depend on the processing

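Of 234 values of the 9 junction genes under 26 alternatives, 210 kept their direction and side of the threshold, 16 lost the call, 3 gained it and 5 reversed, and Jam2 passed in each. Why values moved was not tested. Counts below are given as higher and lower in GF. DESeq2 gave 1891 and 2210 over all genes, and 3 nectins and related genes were higher. Voom gave 1913 and 1636 over all genes, 2 higher nectins and related genes, and 0 lower cadherins. Library totals gave 971 and 2773 over all genes, 1 and 2 catenins and linkers, and 3 higher scaffolds.

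Scaling to endothelial markers gave 356 and 5045 over all genes, 0 and 2 catenins, 2 and 1 scaffolds, 2 lower cadherins, 0 and 4 nectins, and 1 and 10 regulators. It reversed Cdh5 (-0.017), F11r (-0.029), Afdn (-0.0035), Prkci (-0.062), Ptpn11 (-0.053), Mmrn2 (-0.041), Ctdsp2 (-0.025), Dusp3 (-0.096) and Calu (-0.042), and Pecam1 (0.097) lost its call.

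A threshold of 0.01 gave 629 and 579 over all genes, 2 and 0 junction genes, 0 higher catenins, 2 higher scaffolds, 1 higher claudin, 0 lower cadherins, 0 lower nectins, and 2 and 1 regulators. Cldn5 (-0.54), Tjp1 (0.53), Ocln (1.19) and Pecam1 (0.41) missed it. Code number 10 alone gave 978 and 1000 over all genes, 3 higher junction genes, 0 catenins, 3 scaffolds, 2 claudins, 0 lower cadherins, 1 lower nectin, and 2 and 1 regulators, without Tjp1 (0.50) and Pecam1 (0.36). Number 9 alone gave 5 and 2 catenins, 11 and 1 scaffolds, 5 higher cadherins, 3 higher nectins and 4 lower regulators. Cdh5 (0.33) and F11r (0.35) also passed there. More of all tested genes reached an unadjusted edgeR p under 0.05 with number 9 alone (6238 of 14122) than with number 10 alone (4515 of 14191). The larger counts are therefore not particular to these lists.

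With the hepatocyte share as covariate 277 and 250 genes passed, with 1 higher junction gene, 0 catenins, 2 scaffolds, 1 and 0 claudins, 0 and 0 cadherins, 0 and 1 nectins, and 1 and 1 regulators. Reversed were Cdh5 (-0.15), F11r (-0.033), Jam3 (-0.077), Afdn (-0.0035), Cdh2 (0.30), Nectin1 (0.044), Mmrn2 (-0.14), Ctnnd1 (-0.072), Ctdsp2 (-0.050), Dusp3 (-0.20) and Calu (-0.19), and Tjp1 (0.13), Ocln (0.98), Esam (0.18) and Pecam1 (0.025) lost their calls. With the cholangiocyte share 268 and 122 genes passed, with 1 higher junction gene, 0 catenins, 0 scaffolds, 1 and 0 claudins, 0 and 0 cadherins, 0 and 0 nectins, and 1 and 1 regulators, and Tjp1 (0.43), Ocln (0.54), Esam (0.45) and Pecam1 (0.28) lost their calls. Without CONV-R 1, 6 and 7 together 1 catenin, 2 claudins, 0 lower cadherins and 1 lower regulator passed. In that fit 4807 of all 14183 tested genes had an unadjusted edgeR p under 0.05, against 5416 of 13915 with all libraries.

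Leaving out 1 library at a time gave 1013 to 1765 higher genes (1013 without GF 9), 1 to 4 higher and 0 to 1 lower catenins, 2 to 6 scaffolds, 2 to 6 claudins, 0 to 1 lower cadherins, 1 to 2 higher and 1 to 2 lower nectins and 4 to 9 higher regulators. F11r ran from 0.20 to 0.34 and Pecam1 from 0.33 to 0.47. No paired analysis was possible because GF and CONV-R share no replicate number. Depth limits the scarcest genes: Ocln had as few as 17 counts and Cldn23 no more than 28 counts in a library.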
